A study of Homo sapiens with 10 samples.

Results

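The genes described here are the MiT/TFE transcription factors TFEB, TFE3, MITF and TFEC, the folliculin gene FLCN with its partners FNIP1 and FNIP2, and the Rag GTPase genes RRAGA, RRAGC and RRAGD. They were chosen by gene symbol, are 10 of the 28380 genes in the count table, and all 10 passed the low-count filter that left 13378 genes for testing. The cells were RPE-1, an established line of human retinal pigment epithelial cells immortalized with telomerase. One group of 5 replicates received the vehicle DMSO and the other group of 5 replicates received sulforaphane (SFN), the isothiocyanate of broccoli, at 25 µM, each for 4 h in complete medium. All libraries thus came from 1 cell line, 1 dose and 1 time, and nothing in the labels says whether replicates were separate cultures, so that p-values measure the spread between these samples, which may be technical.

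MITF, TFEB, TFE3 and TFEC are basic helix-loop-helix leucine zipper proteins that bind DNA as dimers, at E-box sequences in the promoters of lysosomal and autophagy genes. In fed cells, Rag GTPase heterodimers hold TFEB, TFE3 and MITF at the lysosome, where the mTORC1 kinase phosphorylates them and 14-3-3 proteins retain them in the cytoplasm. Folliculin, together with FNIP1 or FNIP2, is the GTPase-activating protein for RagC and RagD, and starvation releases the factors to the nucleus. Their activity is set largely at the level of phosphorylation and location, which RNA counts do not measure. In pigmented cells MITF also directs the genes of melanin synthesis.

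The libraries held between 15689294 and 20666692 counts in DMSO and between 12375860 and 17308706 in SFN. Counts are per gene and come from sequencing of transcript 3′ ends, as the methods of the study describe it. Values are given as CPM, in which TMM scaling puts all libraries on one scale, and differences as the log2 fold change of SFN against DMSO from edgeR's quasi-likelihood test, with p-values adjusted by the Benjamini-Hochberg method over all genes tested and called at an adjusted p under 0.05. DMSO replicate 1 stood apart, with a mean Spearman correlation across genes of 0.935 with the other DMSO replicates, which had 0.979 to 0.982, and its TMM factor was 0.886 where theirs were 1.06 to 1.08. Results that rest on it are therefore also given without it. The markers of retinal pigment epithelium were mixed. RPE65, RLBP1, TTR and SERPINF1 had at most 4 counts in any library, LRAT, RDH5 and PMEL had at most 29, and OTX2, with 107 to 299 counts, BEST1, with 97 to 1244, and the epithelial keratins KRT8 and KRT18 were expressed in every library. Markers of other cell types were near 0, with a summed level of at most 0.623 CPM in any library over the 4 that have a row of the 8 listed.

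SFN lowered the mRNA of MITF and TFEB and raised that of TFE3 and FLCN, and the SFN and DMSO libraries did not overlap for any of these 4 genes. The other 6 genes did not pass the test. Thus 2 of 10 genes were significantly increased, where 9.07% of all genes tested were, and 2 of 10 were significantly decreased, where 13.9% of all genes were. The 4 genes without overlap compare with 19.9% of all genes tested. The median log2 fold change of the 10 genes was 0.074, and that of all genes tested was -0.028. These shares are given as background to the single genes. In RNA from bulk cells, a change in every cell and a change in some of the cells cannot be told apart.

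**Figure D1:**
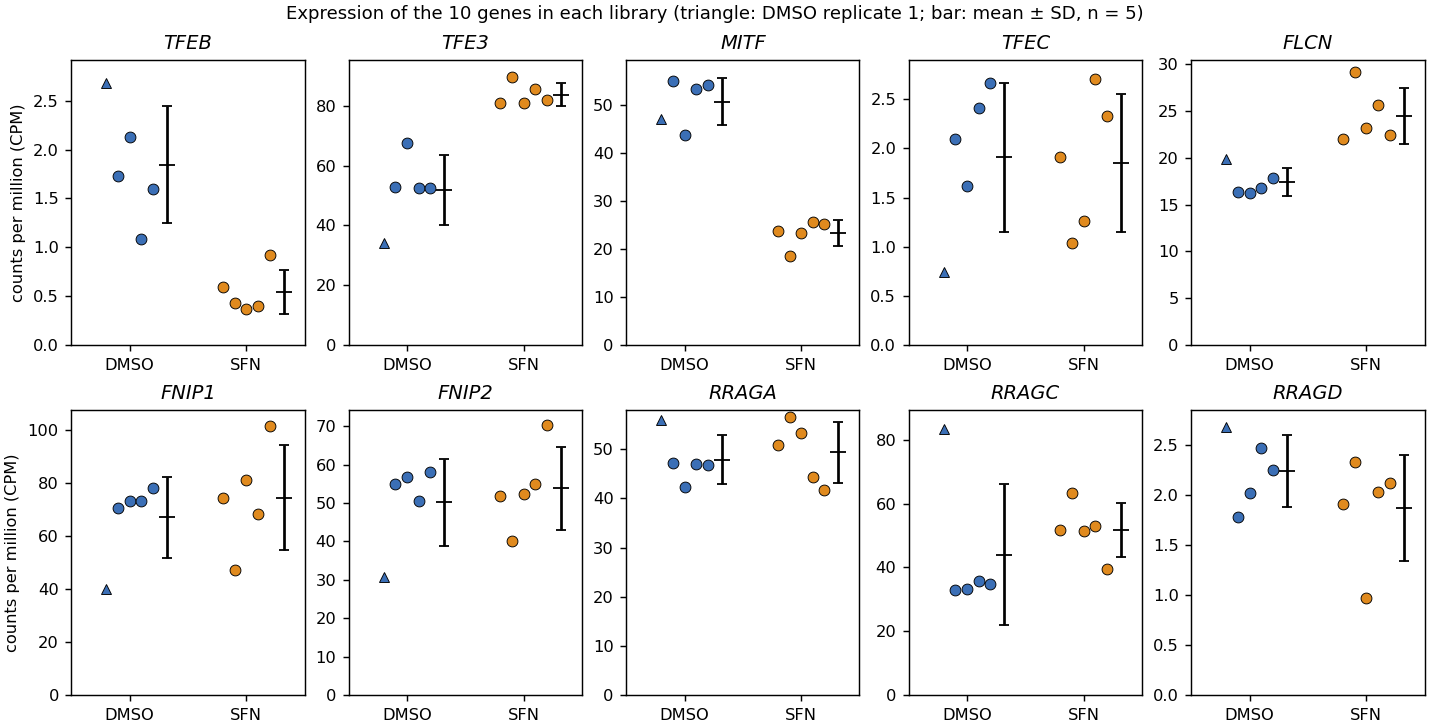
CPM of each of the 10 genes in every library, on a linear axis from 0, with DMSO in blue, SFN in orange, DMSO replicate 1 as a triangle and bars for the mean ± SD of 5 replicates. The orange points lie wholly below the blue points for TFEB and MITF and wholly above them for TFE3 and FLCN, and the triangle lies far above the other blue points for RRAGC, at 83.4 CPM.

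TFEB, the factor best known as a master regulator of lysosome biogenesis, lies on chromosome 6 at 41683978 to 41736259 (GRCh38, minus strand, ENSG00000112561). Its reads were few. The 5 DMSO libraries held 43, 38, 38, 18 and 27 counts, and the 5 SFN libraries held 10, 5, 5, 6 and 13. After scaling these were 2.68, 1.73, 2.12, 1.08 and 1.60 CPM in DMSO, and 0.596, 0.431, 0.372, 0.405 and 0.918 CPM in SFN. The highest SFN library was thus below the lowest DMSO library, although the margin between them was small. TFEB fell by 1.73 on the log2 scale (SE 0.334, 95% interval -2.46 to -1.0, adjusted p = 0.00287 by edgeR). Without DMSO replicate 1, which had its highest value, it fell by 1.57. Among all genes tested, 1.66% had a lower log2 fold change.

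MITF, the factor that specifies melanocytes and retinal pigment epithelium, is a long gene on chromosome 3 at 69739456 to 69968336 (plus strand, ENSG00000187098), with several alternative promoters and first exons. Gene-level counts pool its isoforms, as they do those of TFEB. DMSO libraries held 47.2, 55.1, 43.9, 53.4 and 54.3 CPM of MITF, and SFN libraries held 23.9, 18.7, 23.5, 25.6 and 25.3 CPM. Every SFN library was well below every DMSO library. MITF fell by 1.12 on the log2 scale (SE 0.120, 95% interval -1.38 to -0.86, adjusted p = 5.27e-05 by edgeR), which is 2.17-fold lower, with 758 to 1210 counts per DMSO library and 217 to 401 per SFN library. Without DMSO replicate 1 it fell by 1.14.

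TFE3, a close relative of TFEB with an overlapping set of lysosomal targets, lies on chromosome X at 49028726 to 49043410 (minus strand, ENSG00000068323), and it went the other way. Its level was 34.3, 52.7, 67.4, 52.3 and 52.4 CPM in DMSO and 80.8, 89.6, 80.7, 85.4 and 81.7 CPM in SFN. The SFN libraries were close together and all above the DMSO libraries, among which replicate 1 was lowest. The log2 fold change was 0.69 (SE 0.151, 95% interval 0.36 to 1.02, adjusted p = 0.00628 by edgeR), or 1.61-fold, and 0.57 without DMSO replicate 1.

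TFEC, the family member known mainly from macrophages, lies on chromosome 7 at 115935148 to 116159896 (minus strand, ENSG00000105967) and was scarce, with 12 to 46 counts per DMSO library and 12 to 40 per SFN library. Its level was 0.747, 2.10, 1.62, 2.41 and 2.66 CPM in DMSO and 1.91, 1.04, 1.27, 2.70 and 2.33 CPM in SFN. The groups overlapped over nearly their whole range. The log2 fold change was -0.038, and its 95% interval of -0.81 to 0.74 leaves room for a change in either direction at this depth (adjusted p = 0.955 by edgeR).

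Ratios of related genes were also taken within each library, where scaling between libraries does not enter. Since TFE3 rose and MITF fell without overlap, their ratio restates these changes and is given as a description. Its permutation p followed from these changes and entered only the adjustment over the 4 ratios taken. Levels of 2 genes cannot be compared directly, since their capture differs, so only the change in the ratio is read. The log2 ratio of TFE3 to MITF counts was -0.46, -0.066, 0.62, -0.028 and -0.051 in the DMSO libraries and 1.76, 2.26, 1.78, 1.73 and 1.69 in the SFN libraries. Every SFN library was above every DMSO library. The ratio was 3.58-fold higher in SFN, a log2 difference of 1.84 between means of 0.0023 ± 0.387 in DMSO and 1.84 ± 0.234 in SFN (SD, n = 5 each). The ratio of TFEB to MITF had a log2 difference of -0.58 between groups that overlapped (two-sided exact permutation p = 0.119, adjusted to 0.159 over the 4 ratios taken), so a difference between the decreases of these 2 genes was not detectable.

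**Figure D2:**
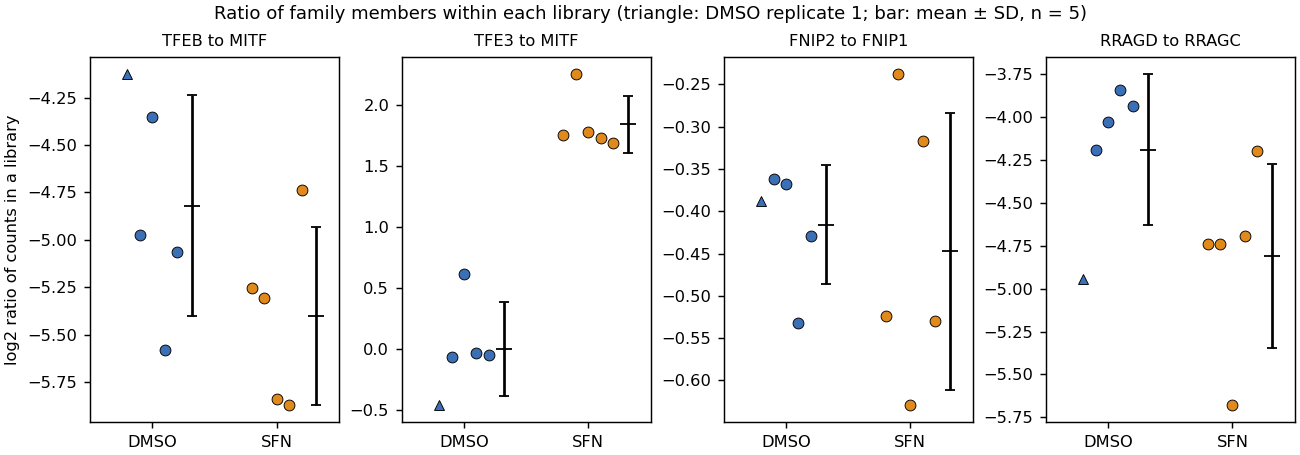
Log2 ratio of counts of related genes within each library, for TFEB to MITF, TFE3 to MITF, FNIP2 to FNIP1 and RRAGD to RRAGC, each panel with its own axis, with bars for the mean ± SD of 5 replicates and DMSO replicate 1 as a triangle. The TFE3 to MITF ratio is at most 0.62 in DMSO and at least 1.69 in SFN, while the groups overlap in the other panels.

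FLCN encodes folliculin, the tumor suppressor lost in Birt-Hogg-Dubé syndrome, and lies on chromosome 17 at 17212212 to 17237188 (minus strand, ENSG00000154803). Its level was 19.8, 16.4, 16.3, 16.7 and 17.8 CPM in DMSO and 22, 29.1, 23.2, 25.6 and 22.4 CPM in SFN. All SFN libraries were above all DMSO libraries, and DMSO replicate 1 was the highest of its group. The log2 fold change was 0.49 (SE 0.114, 95% interval 0.24 to 0.74, adjusted p = 0.00914 by edgeR), or 1.40-fold, and 0.53 without that library. A second protein-coding annotation on the same strand, ENSG00000264187, overlaps FLCN outside its last exon and held at most 6 counts in any library.

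The folliculin-interacting proteins FNIP1 and FNIP2 did not pass the test, and their intervals include the log2 fold change of FLCN. FNIP1, on chromosome 5 at 131641714 to 131797017 (minus strand, ENSG00000217128), was at 40.1, 70.5, 73.3, 73.1 and 78.0 CPM in DMSO and 74.4, 47.2, 81.0, 68.4 and 102 CPM in SFN. Apart from DMSO replicate 1 the DMSO libraries were close together, and the SFN libraries lay on either side of them. The log2 fold change was 0.15 (95% interval -0.32 to 0.62, adjusted p = 0.672 by edgeR), and 0.011 without DMSO replicate 1. Another protein-coding annotation, ENSG00000273217, overlaps FNIP1 on its strand outside the last exon and has no counts of its own in these data. FNIP2, on chromosome 4 at 158769026 to 158908050 (plus strand, ENSG00000052795), was at 30.6, 54.9, 56.9, 50.5 and 58.0 CPM in DMSO and 51.7, 40.03, 52.4, 54.9 and 70.3 CPM in SFN. It had the same order of libraries at its ends, with DMSO replicate 1 lowest and SFN replicate 5 highest. Its log2 fold change was 0.10 (95% interval -0.31 to 0.52, adjusted p = 0.755 by edgeR), and -0.036 without DMSO replicate 1. The ratio of FNIP2 to FNIP1 differed by -0.032 on the log2 scale (exact permutation p = 0.690, adjusted to 0.690).

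Among the Rag GTPases, RagA pairs with RagC or RagD to recruit mTORC1 when amino acids are present. RRAGA, a gene of 1 exon on chromosome 9 at 19049427 to 19051025 (plus strand, ENSG00000155876), was at 56.0, 47.2, 42.3, 46.9 and 46.9 CPM in DMSO and 51.0, 56.6, 53.4, 44.5 and 41.7 CPM in SFN. The groups covered almost the same range. The log2 fold change was 0.047, with a 95% interval of -0.21 to 0.31, the narrowest of the 6 genes that did not pass (adjusted p = 0.827 by edgeR).

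RRAGC, on chromosome 1 at 38838198 to 38859772 (minus strand, ENSG00000116954), was at 83.4, 32.9, 33.3, 35.7 and 34.9 CPM in DMSO and 51.6, 63.3, 51.5, 53.2 and 39.4 CPM in SFN. DMSO replicate 1, with 1339 counts, was above every SFN library, and the other 4 DMSO libraries, with 589 to 722 counts, were below every SFN library. With all libraries the log2 fold change was 0.24 (SE 0.261, 95% interval -0.33 to 0.80, adjusted p = 0.580 by edgeR). Without DMSO replicate 1 it was 0.59 (SE 0.115, adjusted p = 9.17e-04 by edgeR), so the call for RRAGC rests on this 1 library. A long noncoding RNA annotated on the same strand overlaps the last exon of RRAGC and has no counts of its own in these data.

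RRAGD, on chromosome 6 at 89364616 to 89412273 (minus strand, ENSG00000025039), had 36 to 43 counts per DMSO library and 13 to 32 per SFN library. Its level was 2.68, 1.78, 2.01, 2.47 and 2.25 CPM in DMSO and 1.91, 2.33, 0.968, 2.02 and 2.12 CPM in SFN. The groups overlapped, with SFN replicate 3 below the rest. The log2 fold change was -0.26 (95% interval -0.79 to 0.28, adjusted p = 0.511 by edgeR), and -0.093 without SFN replicate 3. The ratio of RRAGD to RRAGC differed by -0.62 on the log2 scale with all libraries (exact permutation p = 0.0873, adjusted to 0.159), by -0.81 without DMSO replicate 1 (exact permutation p = 0.0159) and by -0.77 without SFN replicate 5 (exact permutation p = 0.0397), neither of which was adjusted. Leaving out any other single library gave an exact permutation p of 0.103 to 0.167.

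**Figure D3:**
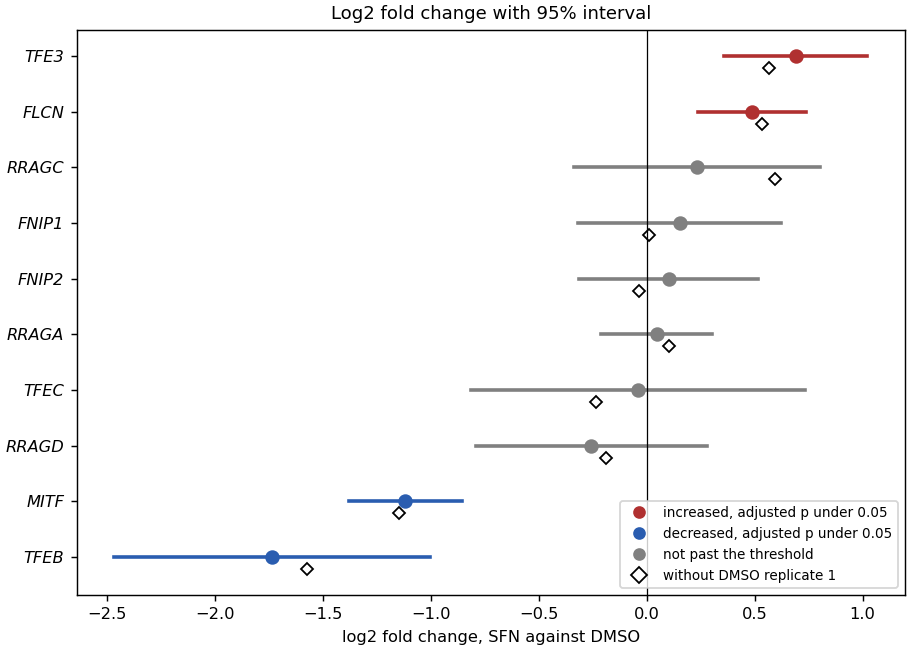
Log2 fold change of SFN against DMSO for the 10 genes, with points and 95% intervals from all libraries, coloured by call, and open diamonds for the value without DMSO replicate 1. The intervals of TFE3 and FLCN lie above 0 and those of MITF and TFEB below it, and RRAGC has the widest gap between its point, at 0.24, and its diamond, at 0.59.

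Promoter sequences were read from RefSeq on GRCh38.p14, from 250 bases before to 50 bases after each gene start, for 8 of the 10 genes and 14 promoters in all. No promoter was available for RRAGA or RRAGD, so neither gene was searched for any motif. They were searched on both strands for the palindromic E-box CACGTG, which MiT/TFE proteins bind, for its extended form TCACGTGA, which contains it, for the cAMP response element TGACGTCA, a known element of MITF regulation in melanocytes, and for TGACNNNGC, the core of the antioxidant response element bound by NRF2, which SFN is known to activate. The E-box was in 7.26% of 35116 promoters of this length, and here it occurred once in RRAGC and at 2 places in FNIP1. The extended form, in 0.98% of all promoters, was not in these windows. The cAMP response element, in 1.85% of all promoters, was in 1 of 3 MITF promoters, and the antioxidant core, in 13.3%, was in the promoter of RRAGC and in 1 of 2 promoters each of FNIP2 and TFEC. The E-boxes and the cAMP response element are shown with their flanks, since they belong to the factors' own recognition sequence and to the gene with the lowest adjusted p. Each is written 5′ to 3′ on the strand of its gene, with the motif in capitals.
RRAGC, chr1:38859867-38859896, minus strand: aggtgattccggCACGTGacggggcaccac
FNIP1, chr5:131797175-131797204, minus strand: ccccgcccctgcCACGTGacgggacccgcc
FNIP1, chr5:131797094-131797123, minus strand: tccgcgcgccgcCACGTGatgcggcccccc
MITF, chr3:69936428-69936459, plus strand: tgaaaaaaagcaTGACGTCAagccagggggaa

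The RRAGC E-box starts at position -112 from the gene start, and those of FNIP1 start at -175 and -94. Neither RRAGC nor FNIP1 passed the test with all libraries. The MITF element starts at -152 from the start of the third promoter listed for the gene. That promoter spans 69936342 to 69936641, far inside the gene, which begins at 69739456. Whether it was active in RPE-1 cells was not tested. The counts do not tell which MITF promoter was in use. A match is a description of letters and not of binding.

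Targets of the MiT/TFE factors were taken as a list of 28 lysosomal and autophagy genes, of which 26 were tested. Of these, 13 were significantly increased (9.07% of all genes were), all 26 had a positive log2 fold change, and the median was 0.44 against -0.028 over all genes tested. UVRAG was positive only at 0.0052, and was -0.11 without DMSO replicate 1. The targets not tested were scarce. PPARGC1A had 4 to 30 counts per DMSO library and 0 to 6 per SFN library, and ATP6V0D2 had 2 to 12 and 1 to 10. UVRAG, PPARGC1A and ATP6V0D2 were named after their values were seen. ATP6V1C1, a subunit of the proton pump that acidifies lysosomes, rose from 90.0 ± 6.67 to 173 ± 8.43 CPM (SD, n = 5 each), a log2 fold change of 0.94 (SE 0.0919). MAP1LC3B, the LC3 protein of autophagosome membranes, rose from 109 ± 16.7 to 198 ± 18.3 CPM, a log2 fold change of 0.86. TPP1, a lysosomal peptidase, rose from 39.1 ± 11.4 to 63.3 ± 8.69 CPM, and GABARAPL1, a relative of LC3, from 7.92 ± 1.98 to 12.7 ± 2.96 CPM, with log2 fold changes of 0.69 and 0.68. The calls for TPP1 and GABARAPL1 were lost in 6 and 10 of 18 alternatives, and those for ATP6V1C1 and MAP1LC3B in none of them. The number of targets increased depended on the setting, as did the share of all genes increased. It was 21 without DMSO replicate 1 (22.5% of all genes), 23 with sample quality weights (29%), 8 without DMSO replicate 3 (6.95%) or SFN replicate 3 (6.66%), 7 without SFN replicate 4 (6.74%), 7 with no low-count filter (4.0%) and 6 with library size scaling alone (6.12%).

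Among the MITF targets of pigment cells, TYRP1 and TRPM1 had at most 2 counts in any library, and 6 of the 12 genes listed could be tested. Of those 6, 2 were significantly increased, where 9.07% of all genes were. GPR143, a melanosome receptor, rose from 8.88 ± 0.545 to 12.4 ± 1.95 CPM, and MC1R, the melanocortin receptor, from 1.70 ± 0.357 to 3.65 ± 0.791 CPM (SD, n = 5 each, log2 fold changes of 0.48 and 1.10). MC1R had only 20 to 49 counts per DMSO library and 28 to 64 per SFN library. Both GPR143 and MC1R rose while MITF itself fell, although the call for GPR143 was lost with no low-count filter. RAB27A, PMEL and SLC45A2, named after their values were seen, did not pass. Their log2 fold changes were -0.023, 0.14 and 0.41. BEST1, a chloride channel of retinal pigment epithelium named after its values were seen, had a log2 fold change of 1.17 that did not pass the test (adjusted p = 0.163 by edgeR), and of 1.68 without DMSO replicate 1 (adjusted p = 0.0096). Its level varied widely, at 18.8 ± 13.7 CPM in DMSO and 42.4 ± 36.7 CPM in SFN. Annotations that overlap BEST1 were not examined. Among 9 tested targets of MITF outside the pigment program, SNAI2, a transcription factor of mesenchymal cells, was significantly decreased from 26.4 ± 7.99 to 11.9 ± 1.35 CPM, a log2 fold change of -1.15. CTSK, a lysosomal protease of bone, had a log2 fold change of 0.40, and its call was lost in 12 of the 18 alternatives of this test. Without DMSO replicate 1, 4 of these genes were decreased, where 23.5% of all genes were, and without SFN replicate 5, 2 were (13.2%).

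Genes that regulate MITF were tested where they were transcribed. Of 6 tested, 2 were significantly decreased, where 13.9% of all genes were, and the median log2 fold change was -0.10. SOX9, a transcription factor of neural crest and cartilage, fell from 67.6 ± 4.90 to 26.4 ± 4.60 CPM (SD, n = 5 each, log2 fold change -1.36, SE 0.136). OTX2, which acts with MITF in retinal pigment epithelium and is also among its markers, fell from 14 ± 2.14 to 9.01 ± 0.286 CPM (log2 fold change -0.64, SE 0.123). With all libraries it was the 1 called of 6 tested markers of retinal pigment epithelium. Without DMSO replicate 1 a further 2 markers were increased, where 22.5% of all genes were. PAX6, which was tested too, had a log2 fold change of 0.0092.

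Among the complexes that act on the Rag GTPases, GATOR1 is the GTPase-activating complex for RagA, GATOR2 inhibits GATOR1, and KICSTOR tethers GATOR1 to the lysosome. Of their 12 genes, all tested, 4 were significantly decreased, with 1 or 2 from each complex, where 13.9% of all genes were. DEPDC5, of GATOR1, fell from 3.86 ± 0.840 to 1.74 ± 0.413 CPM (SD, n = 5 each), a log2 fold change of -1.15 (SE 0.220). MIOS and WDR24, of GATOR2, had log2 fold changes of -0.67 and -0.89, and ITFG2, of KICSTOR, had -0.65. The other 8 genes did not pass, and the median of all 12 was -0.15. The groups overlapped for MIOS and did not overlap for the other 3. For MIOS the overlap came from DMSO replicate 1, and without it the log2 fold change was -0.77. The call for WDR24 was lost in 1 of 18 alternatives, with quantile normalization. In that setting 2 of the 12 genes were increased and 3 decreased, where 9.84% and 11.5% of all genes were.

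The Ragulator complex anchors Rag GTPases to the lysosome. LAMTOR3 was significantly increased from 24.7 ± 3.31 to 40.1 ± 2.27 CPM (SD, n = 5 each, log2 fold change 0.70), the only 1 of 7 genes called in a list that held the 5 LAMTOR genes, the arginine sensor SLC38A9 and RRAGB. Without DMSO replicate 1, 4 of the 7 were increased, where the share of all genes rose from 9.07% to 22.5%. LAMTOR5 then had a log2 fold change of 0.77, where it was 0.058 with all libraries, and LAMTOR4 had 0.53, where it was -0.20. These 2 genes were named after their values were seen. RRAGB, the close relative of RRAGA, had a log2 fold change of 0.36 (adjusted p = 0.130 by edgeR).

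Of 22 genes for kinases, the phosphatase calcineurin, nuclear export and 14-3-3 proteins that act on MiT/TFE proteins, 3 were significantly increased, where 9.07% of all genes were, and the median log2 fold change was 0.18. PPP3R1 and PPP3CB, the regulatory subunit and a catalytic subunit of calcineurin, which dephosphorylates TFEB, rose from 79.9 ± 7.93 to 123 ± 10.5 CPM and from 144 ± 20.4 to 187 ± 12.5 CPM (SD, n = 5 each, log2 fold changes of 0.62 and 0.37). RHEB, the small GTPase that activates mTORC1, rose from 249 ± 27.9 to 349 ± 53.0 CPM, a log2 fold change of 0.49, between groups that overlapped. That overlap came from DMSO replicate 1, and without it the log2 fold change of RHEB was 0.56. The call for PPP3CB was lost in 11 of 18 alternatives. Without DMSO replicate 1, 6 of the 22 genes were increased and 2 decreased, where 22.5% and 23.5% of all genes were, and with sample quality weights 11 were increased and 4 decreased, where 29% and 30.2% were.

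**Figure D4:**
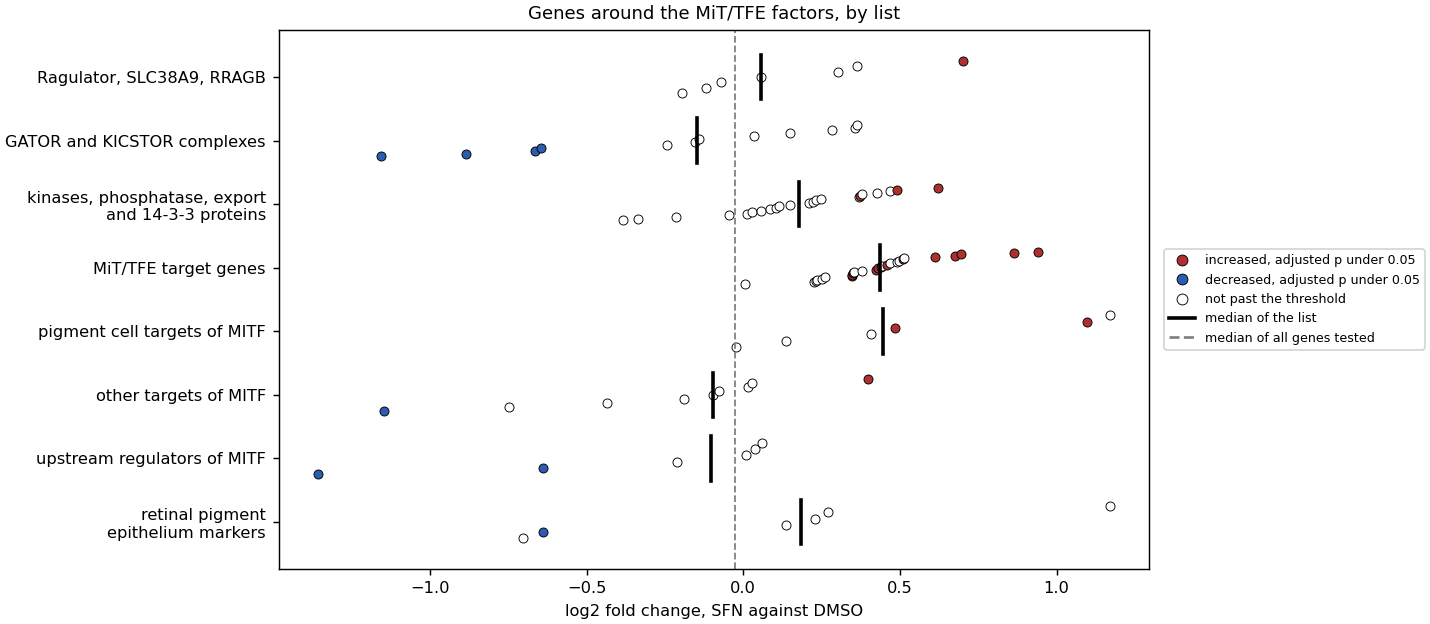
Log2 fold change of SFN against DMSO for the tested genes of 8 lists around the MiT/TFE factors, with 1 point per gene, filled where the adjusted p was under 0.05, a thick line at each list's median and a dashed line at the median of all genes tested. All 26 points of the target genes lie to the right of 0, and the 4 filled points of GATOR and KICSTOR lie to the left.

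For each of the 4 genes that passed, the genes whose log2 CPM followed it most closely over the 10 libraries were taken from those with a mean of at least 10 CPM. These correlations include the difference between SFN and DMSO and the libraries' shared scaling, and are a description. For MITF they were PDE12, HMGA2 and IFIT5 (Pearson r 0.989, 0.988 and 0.988), which had log2 fold changes of -1.10, -1.27 and -1.64. For TFEB they were HIP1, PGM2L1 and WDR89 (0.980, 0.976 and 0.968), with log2 fold changes of -0.62, -0.68 and -1.06. For TFE3 they were the collagen prolyl hydroxylase P4HA2, TGFB1, which the file lists as AC011462.1, and OS9 (0.984, 0.980 and 0.978), with log2 fold changes of 0.52, 0.41 and 0.43. For FLCN they were HSD17B7, an enzyme of cholesterol synthesis, PLPBP and the Rab regulator TBC1D17 (0.989, 0.984 and 0.983), with log2 fold changes of 0.94, 0.42 and 0.59.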

How the data were processed

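The authors treated RPE-1 cells (50000 per replicate) and deposited unnormalized counts, 1 value per Ensembl gene and replicate. Their methods name Lexogen QuantSeq, which reads the 3′ ends of transcripts, and the Bluebee pipeline, and the submitters' processing notes list FastQC, STAR, featureCounts, edgeR and GRCh38. Use of strand and of molecular identifiers, and the Ensembl release, are not given in the sources used here. Reads at 3′ ends do not separate isoforms.

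Genes were filtered with filterByExpr, scaled by TMM and tested with glmQLFit and glmQLFTest (edgeR 4.0.16, limma 3.58.1, DESeq2 1.42.0, R 4.3.3). The SE was derived from the log2 fold change and its F statistic. Ratios used counts plus 0.5. Replicates differed beyond sampling noise (chi-square per degree of freedom of at least 3.5). Positions are from GENCODE 44, which held 28145 of the 28380 identifiers.

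The genes and the 9 gene lists were chosen with earlier results of these data known. Named were all 10 genes, up to 4 called genes per list and direction, and the 3 genes most like each called gene. Genes named outside this rule, among them PAX6 and RRAGB, were named with their values known. The model of the authors with a repeated measure was not run.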

Additional observations from a re-analysis of the deposited data

Results flagged for a closer look

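Among the named genes and ratios, 88 groups of 5 libraries were examined for a library far from the others, measured as the gap to its nearest neighbour over the range of the group, and 14 were found where chance would give about 4. That figure takes the groups as independent. They are not, since some of the genes were chosen for following another named gene over these same libraries. DMSO replicate 1 accounted for 7 of them and SFN replicate 2 for 6. DMSO replicate 1 was lowest for FNIP1 (gap 0.801 of the range), FNIP2 (0.729), MIOS (0.772) and PPP3CB (0.716), and highest for RRAGC (0.944), RHEB (0.905) and TBC1D17 (0.853). SFN replicate 2 was highest for PPP3R1 (0.761), TGFB1, listed as AC011462.1 (0.764), HSD17B7 (0.717), PLPBP (0.728), TBC1D17 (0.838) and the log2 ratio of TFE3 to MITF (0.834). DMSO replicate 5 was highest for OTX2 (0.733). SFN replicate 2 had the smallest library, with 12375860 counts. Without it, the difference in the log2 ratio of TFE3 to MITF was 1.74, against 1.84 with all libraries.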

How the results depend on the processing

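TFEB, MITF, TFE3 and FLCN kept their direction and an adjusted p under 0.05 in all 18 alternatives, with log2 fold changes of -2.0 to -1.57, -1.20 to -1.04, 0.57 to 0.80 and 0.41 to 0.55. RRAGC passed in 2 of 18, at 0.59 without DMSO replicate 1 and 0.58 with sample quality weights. With a log2 fold change above 1 required as well, 0 genes were increased, since TFE3 and FLCN changed by less, and 2 were decreased. Values near 0 changed sign: RRAGA was -0.033 with library size scaling alone, TFEC was 0.11 with quantile normalization and FNIP2 was -0.024 with quality weights. With 1 library left out, the ranges were -0.23 to 0.11 for TFEC, -0.000226 to 0.10 for RRAGA, -0.036 to 0.19 for FNIP2, 0.011 to 0.28 for FNIP1, -0.34 to -0.093 for RRAGD, -0.084 to 0.014 for the ratio of FNIP2 to FNIP1 and -0.81 to -0.40 for that of RRAGD to RRAGC. The replicate block gave 2 genes increased and 2 decreased here, and 911 and 1530 of all genes where 1214 and 1862 were called without it. For libraries of the same number, deviations from the group mean had correlations of -0.267 to 0.484, and 1 of 5 DMSO libraries was closest to its own number. DMSO replicates 2, 3, 4 and 5 were all closest to SFN replicate 5, so this check cannot tell whether libraries were paired. Over all genes, 3058 were increased and 3193 decreased without DMSO replicate 1, 3874 and 4041 with quality weights, and 819 and 2163 with library size scaling alone. Low counts of TFEB, TFEC and RRAGD limit their precision.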
